A study of Homo sapiens with 6 samples.

Results

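The 150 genes described here are those whose signal differed most from culture to culture among human neural stem cells. They were taken from 18103 genes by a rule that used the measured values: for each gene the standard deviation (SD) was computed over the 3 X5050 arrays and over the 3 DMSO arrays, and the 150 genes with the largest value of the smaller SD were kept. Each gene was represented by the probe set with its highest mean, and symbols beginning with COL, PCDH, HOX, SNOR or SCARNA were left out. All 150 were measured on every array, and no filter on low signal was applied. Their spread is therefore the basis of the choice and is given as a description.

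The cells were neural stem cells (NSCs) at passage 14. They were made from SA-01, an established line of human embryonic stem cells, and grown in a serum-free medium with N-2 and B-27 supplements on polyornithine and laminin. From 5 h after plating they received 100 µM X5050, a small molecule known to lower the level of the transcriptional repressor REST, or its solvent DMSO at 0.1%, for 24 h. There were 3 arrays per treatment, numbered as biological replicates 1, 2 and 3, and the number is called the culture below. The labels do not say that X5050 and DMSO arrays of the same number share a culture. Such arrays were taken as 1 culture because their values correlated. All 6 arrays come from 1 embryonic stem cell line, so the differences are between cultures of that line and not between donors. Whether the numbered cultures were separate thaws, differentiations or platings is not given in the sources used here, and day of handling, array processing and culture cannot be told apart. Signals are the authors' log2 values, and the array medians lay between 5.68 and 5.75.

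NSCs in culture are proliferating neuroepithelial or radial glia-like cells that express SOX2, PAX6 and nestin and can give neurons and glia. Cells with a mesenchymal character instead express smooth muscle type actins and their partners, secrete fibronectin, thrombospondins and lysyl oxidase, and use factors such as SNAI2 and PRRX1. Contractile genes are commonly driven by serum response factor, which binds the CArG box, and by the YAP and TEAD factors that respond to cell spreading and tension.

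Culture 1 stood highest in both treatments for 118 of the 150 genes (78.7%, against 16.9% of all genes ranked). For 101 genes (67.3%) culture 1 was the one apart, on the high side, when the 2 arrays of each culture were averaged; the culture apart is the one across the larger of the 2 gaps between the sorted cultures. Culture 1 was apart and low for 6 genes, culture 2 apart and high for 9 and low for 15, and culture 3 apart and high for 7 and low for 12. The genes high in culture 1 include contractile proteins, secreted matrix proteins with their crosslinking enzymes, surface receptors and mesenchymal transcription factors. In bulk RNA a smaller number of cells of a type and less RNA per cell cannot be told apart.

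**Figure D1:**
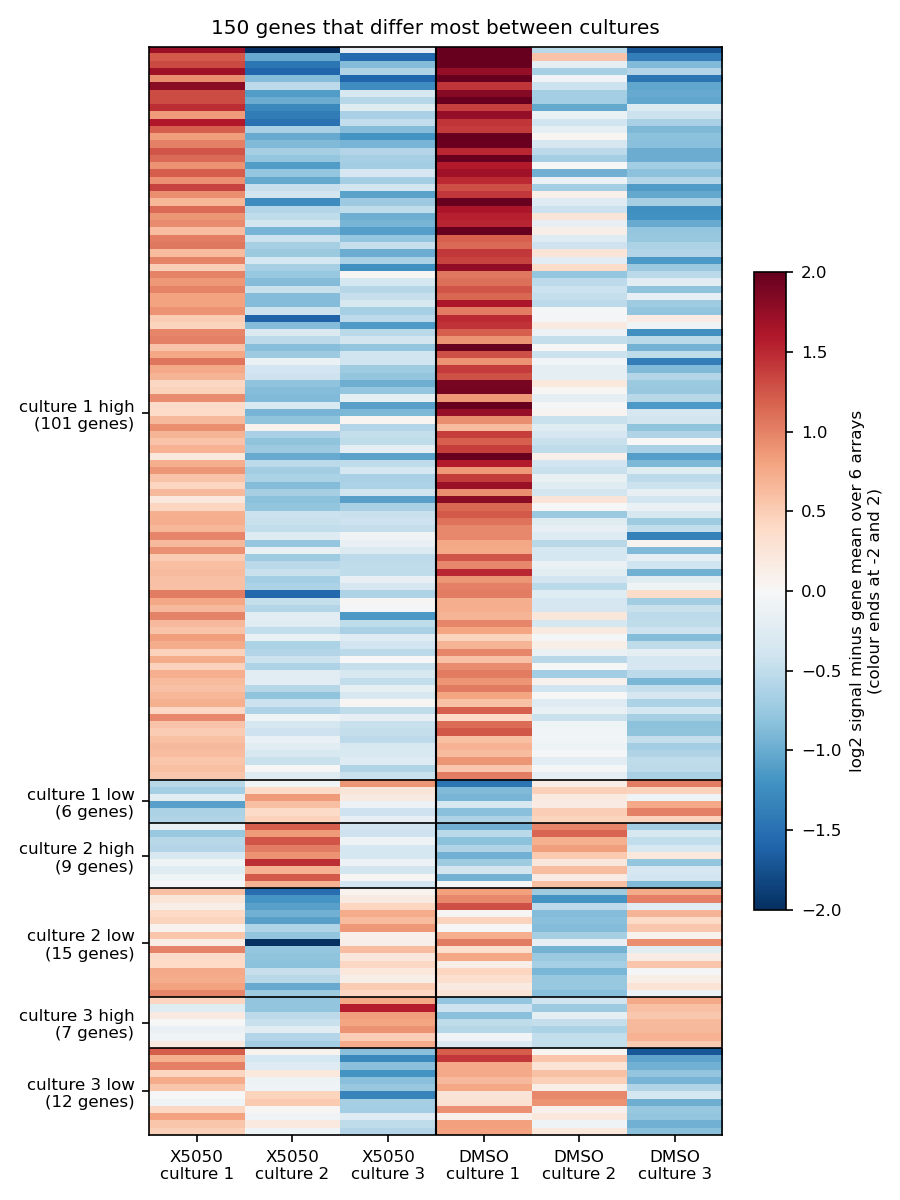
Log2 signal of each of the 150 genes minus its mean over the 6 arrays (colour, ending at -2 and 2), with X5050 cultures 1 to 3 left and DMSO cultures 1 to 3 right, grouped by the culture that stood apart. Culture 1 is the high column in both treatments for most of the 101 genes in the top block.

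The rule asked for a wide spread in each treatment but did not ask that the same culture be the odd one in both. Arrays with the same number were taken as 1 culture because their values correlated in these data. The counts below therefore describe that pairing and do not test it. The shares over all genes come from genes of smaller spread, with a median smaller SD of 0.08 against 0.71. The same culture was apart on the same side in both treatments for 116 of 150 genes (77.3%), against 25.2% of all genes. It was highest in both for 142 genes (94.7%, against 46.1%), and the full order of the 3 cultures was the same for 93 genes (62.0%, against 24.4%). Within the 101 genes with culture 1 high, 89 kept that pattern in each treatment taken alone, as did 13 of 15 with culture 2 low and 6 of 9 with culture 2 high. In the remaining classes the same count was 4 of 7 genes with culture 3 high, 3 of 12 with culture 3 low and 1 of 6 with culture 1 low. The class counts rest on culture 1: with the rule applied anew without its X5050 array the culture 1 high class held 29 genes, and without its DMSO array it held 48.

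The smaller SD of the 150 genes ran between 0.53 and 1.89 on the log2 scale, with a median of 0.71, against a median of 0.08 over all genes. Just inside the limit were HEG1 (0.528), KCNIP4 (0.527) and ITGB3 (0.526), and just outside it DAB2 (0.526), KITLG (0.524) and GJA1 (0.518). The mean signal of the 150 genes ran between 4.33 and 10.71, with a median of 6.97 against 6.29 over all genes. A limma F test over cultures with treatment in the fit called 143 of the 150 at an adjusted p under 0.05, beside 2.93% of all 19460 probe sets tested; since the rule chose on this spread, nothing is read from the 143.

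The functional groups below were formed after the values were seen, and they serve only to order the description. Of the 13 genes placed under contraction and the actin cytoskeleton, a loose group, all 13 were highest in culture 1 in both treatments. TAGLN encodes transgelin, an actin-binding protein of smooth muscle, and its log2 signals were 8.19, 5.95 and 5.41 in X5050 cultures 1, 2 and 3, against 9.10, 7.53 and 5.58 in DMSO cultures 1, 2 and 3. ACTG2, the enteric smooth muscle gamma actin, measured 8.19, 6.41 and 5.68 in X5050 cultures 1, 2 and 3, against 10.32, 7.19 and 5.81 in DMSO cultures 1, 2 and 3. ACTA2, the vascular smooth muscle alpha actin, measured 11.23, 9.93 and 9.23 in X5050 cultures 1, 2 and 3, against 11.70, 10.39 and 9.27 in DMSO cultures 1, 2 and 3. In all 3 genes culture 1 was highest and culture 3 lowest within each treatment. Culture 1 exceeded the mean of the others 5.71-fold with X5050 and 5.84-fold with DMSO for TAGLN, 4.43-fold and 14.1-fold for ACTG2, and 3.13-fold and 3.66-fold for ACTA2.

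The other genes of the group followed, some of them regulators or partners of these filaments and some, such as CAV1 and MYOF, of other function. MYL9, the regulatory light chain of smooth muscle and non-muscle myosin, measured 9.15, 8.08 and 7.14 in X5050 cultures 1, 2 and 3, against 9.85, 8.98 and 7.38 in DMSO cultures 1, 2 and 3. Here culture 3 was apart and low on the average of the 2 arrays of a culture and with DMSO alone, while with X5050 alone culture 1 was apart and high. MYH9, the non-muscle myosin heavy chain IIA, measured 7.36, 6.34 and 6.45 in X5050 cultures 1, 2 and 3, against 8.15, 6.79 and 6.60 in DMSO cultures 1, 2 and 3. ACTN1, an actinin that bundles actin filaments, measured 9.56, 8.64 and 8.57 in X5050 cultures 1, 2 and 3, against 10.29, 8.99 and 8.24 in DMSO cultures 1, 2 and 3. For MYH9 and ACTN1 culture 1 stood above both other cultures in each treatment. CAV1, the scaffold of caveolae, measured 9.59, 7.17 and 7.97 in X5050 cultures 1, 2 and 3, against 10.10, 7.61 and 7.28 in DMSO cultures 1, 2 and 3. MYOF, a membrane repair protein of the ferlin family, measured 8.33, 5.55 and 6.14 in X5050 cultures 1, 2 and 3, against 9.05, 6.83 and 6.13 in DMSO cultures 1, 2 and 3. ANKRD1, a muscle ankyrin repeat protein and a known YAP target, measured 5.76, 4.55 and 4.49 in X5050 cultures 1, 2 and 3, against 8.42, 5.65 and 4.45 in DMSO cultures 1, 2 and 3. Its culture 1 value with X5050 was close to the culture 2 value with DMSO, so the treatments and cultures overlapped for this gene. ALPK2, ARHGAP29, TAGLN2 and RHOJ also had culture 1 apart and high.

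The promoters of the 13 genes were examined because contractile genes are the textbook home of the CArG box, the element bound by serum response factor. The group was formed after the values were seen. It also holds genes such as CAV1, the scaffold of caveolae, and MYOF, a membrane repair protein. RefSeq windows of 300 bases on GRCh38.p14, running from 250 bases before to 50 after the annotated start, were found for 11 of the 13 genes, as 20 windows. A CArG box (2 cytosines, 6 bases that are A or T, 2 guanines, either strand) lay in 3 of the 20 windows (15%), against 454 of 35116 windows of all genes (1.29%). The motif TATAAA lay in 10.0% against 11.5%, the TEAD-type motif GGAATG in 20.0% against 14.0%, and the AP-1-type motif TGANTCA in 15% against 7.71%. The genes with a box were ACTG2, RHOJ and ACTN1, and the other genes with a window had none. The share of 15% for the box rests on these 3 windows. Promoters were found for only 114 of the 150 genes (76.0%), too few for a share over all of them. The 3 windows with a box are printed in the direction of the gene with the box in capitals: ACTG2 (chr2:73892758-73893057, plus strand) has boxes 110 to 101 and 73 to 64 bases before the start, with a TATAAA on the opposite strand at 31 to 26; RHOJ (chr14:63204193-63204492, plus strand) has 1 box at 78 to 69; and ACTN1 (chr14:68977517-68977816, minus strand, 1 of 4 windows of the gene) has 1 at 171 to 162.
ACTG2: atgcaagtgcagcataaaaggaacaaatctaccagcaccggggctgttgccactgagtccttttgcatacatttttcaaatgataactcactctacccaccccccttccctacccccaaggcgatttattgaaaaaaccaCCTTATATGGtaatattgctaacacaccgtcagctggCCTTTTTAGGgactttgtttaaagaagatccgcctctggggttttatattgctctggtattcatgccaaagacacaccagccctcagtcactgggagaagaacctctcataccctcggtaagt
RHOJ: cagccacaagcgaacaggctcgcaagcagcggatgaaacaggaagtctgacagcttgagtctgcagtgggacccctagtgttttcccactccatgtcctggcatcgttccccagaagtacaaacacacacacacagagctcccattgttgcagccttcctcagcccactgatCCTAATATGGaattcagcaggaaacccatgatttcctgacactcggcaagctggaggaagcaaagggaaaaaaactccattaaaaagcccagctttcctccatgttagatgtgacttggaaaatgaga
ACTN1: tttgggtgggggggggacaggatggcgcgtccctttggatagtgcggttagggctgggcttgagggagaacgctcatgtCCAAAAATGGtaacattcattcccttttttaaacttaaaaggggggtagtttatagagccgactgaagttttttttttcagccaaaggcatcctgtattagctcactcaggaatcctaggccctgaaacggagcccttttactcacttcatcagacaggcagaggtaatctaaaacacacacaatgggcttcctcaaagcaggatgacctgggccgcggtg

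A match to these letters is a description of the window and shows no binding. No value here bears on the activity of the printed windows.

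Of the 28 genes of the extracellular matrix and its enzymes, all 28 were highest in culture 1 in both treatments, and 25 had culture 1 apart and high. FN1, fibronectin, measured 10.85, 9.70 and 9.37 in X5050 cultures 1, 2 and 3, against 11.49, 9.88 and 9.20 in DMSO cultures 1, 2 and 3. LOX, the lysyl oxidase that crosslinks collagen and elastin, measured 8.03, 6.12 and 6.23 in X5050 cultures 1, 2 and 3, against 8.86, 6.22 and 5.89 in DMSO cultures 1, 2 and 3. TGFBI, a matrix protein induced by TGF-beta, measured 9.28, 7.38 and 7.45 in X5050 cultures 1, 2 and 3, against 9.53, 7.50 and 7.04 in DMSO cultures 1, 2 and 3. In these 3 genes the 2 arrays of culture 1 lay above all 4 others, and culture 3 was lowest with DMSO. POSTN, periostin, measured 8.73, 6.81 and 7.34 in X5050 cultures 1, 2 and 3, against 10.30, 7.80 and 7.41 in DMSO cultures 1, 2 and 3. TNC, tenascin C, which radial glia also make, measured 9.70, 7.87 and 7.65 in X5050 cultures 1, 2 and 3, against 9.90, 8.33 and 7.61 in DMSO cultures 1, 2 and 3. THBS1, thrombospondin 1, measured 7.87, 6.32 and 6.14 in X5050 cultures 1, 2 and 3, against 9.32, 7.35 and 6.46 in DMSO cultures 1, 2 and 3. Culture 1 was again above the others in each treatment for all 3 genes, by more with DMSO than with X5050 for POSTN and THBS1.

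Further matrix genes with the same culture apart were the metalloproteases ADAM12 and MMP2, the sulfatase SULF1, which trims heparan sulfate, the microfibril gene FBN1, the small proteoglycans BGN, OGN and LUM, and the matricellular genes CCN1 and CCN2. Their culture 1 values were 6.84 and 8.12 for ADAM12, 8.24 and 8.18 for SULF1, and 8.48 and 10.07 for CCN2, with X5050 and with DMSO in that order. DCN, decorin, went another way, at 6.90, 5.72 and 6.74 in X5050 cultures 1, 2 and 3, against 7.30, 5.78 and 6.67 in DMSO cultures 1, 2 and 3, with culture 2 apart and low. FBLN5, an elastic fibre protein, shared that pattern at 8.07, 6.73 and 7.62 in X5050 cultures 1, 2 and 3, against 8.24, 6.85 and 7.59 in DMSO cultures 1, 2 and 3. SPP1, osteopontin, measured 11.13, 10.00 and 9.10 in X5050 cultures 1, 2 and 3, against 11.13, 9.97 and 8.23 in DMSO cultures 1, 2 and 3, a graded order with culture 1 highest and culture 3 lowest.

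**Figure D2:**
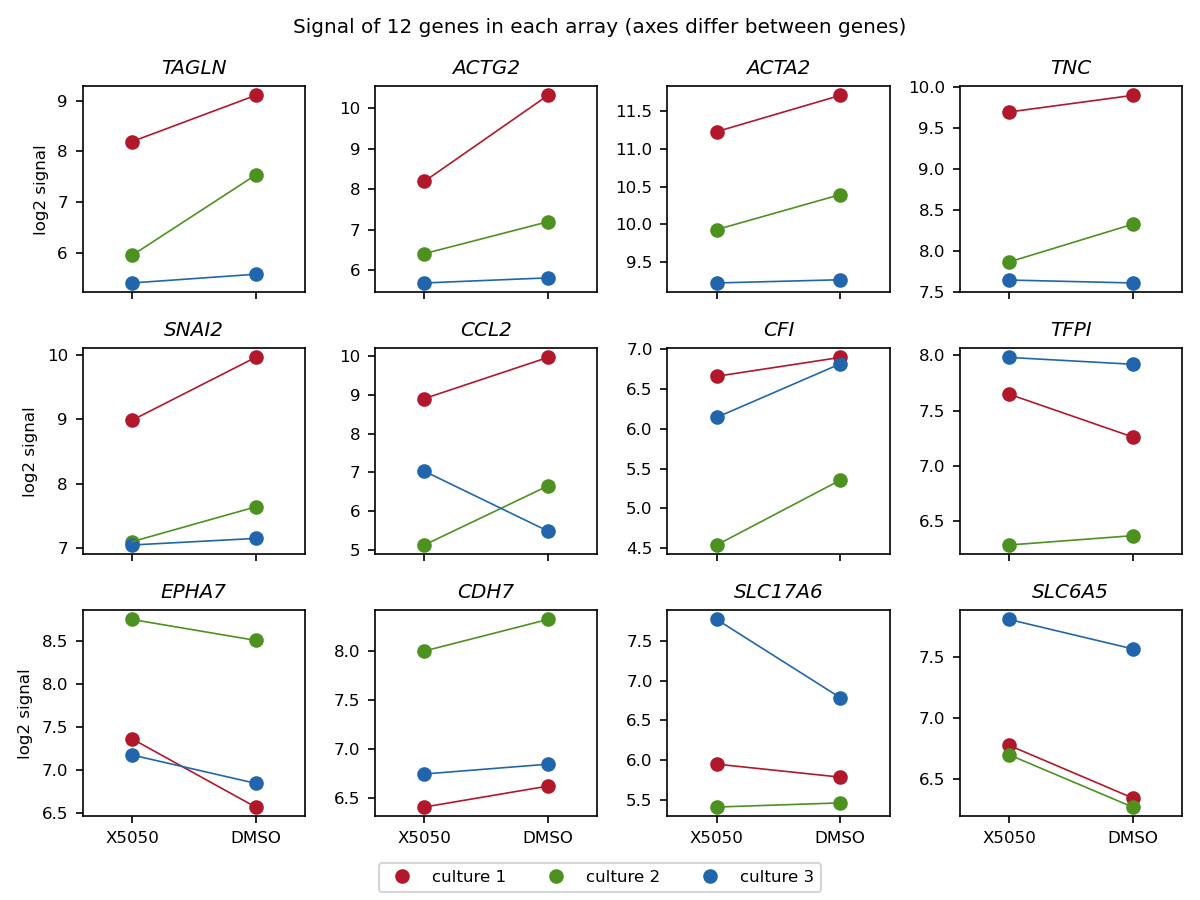
Log2 signal (vertical axes, which differ between genes) of 12 of the 150 genes in X5050 and DMSO arrays (horizontal), 1 point per array, with lines joining the arrays of 1 culture. Culture 1 is on top for TAGLN, ACTG2, ACTA2, TNC, SNAI2 and CCL2, culture 2 on top for EPHA7 and CDH7 and at the bottom for CFI and TFPI, and culture 3 on top for SLC17A6 and SLC6A5.

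Receptors and adhesion molecules were the next largest group, with 15 of 21 in the culture 1 high class. OSMR, a receptor subunit for oncostatin M, measured 8.03, 4.75 and 5.73 in X5050 cultures 1, 2 and 3, against 8.09, 5.67 and 5.75 in DMSO cultures 1, 2 and 3. DDR2, a receptor tyrosine kinase for fibrillar collagen, measured 7.92, 4.84 and 5.83 in X5050 cultures 1, 2 and 3, against 7.76, 5.93 and 5.68 in DMSO cultures 1, 2 and 3. NT5E, the surface nucleotidase CD73, measured 8.23, 5.92 and 6.34 in X5050 cultures 1, 2 and 3, against 8.93, 6.22 and 5.87 in DMSO cultures 1, 2 and 3. Both culture 1 arrays were above every other array for these 3 genes. A second DDR2 probe set gave 6.82, 5.15 and 5.75 with X5050 and 7.28, 5.88 and 5.83 with DMSO, again with culture 1 apart and high. CD44, the hyaluronan receptor, measured 10.16, 8.41 and 8.93 in X5050 cultures 1, 2 and 3, against 10.39, 8.76 and 9.06 in DMSO cultures 1, 2 and 3. KDR, the VEGF receptor of endothelium, measured 7.16, 5.73 and 5.61 in X5050 cultures 1, 2 and 3, against 7.44, 5.74 and 5.36 in DMSO cultures 1, 2 and 3. Integrin chains ITGA4 and ITGB3 had the same culture apart, as did IL1RAP, FAS and NPR3.

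Among the secreted signals CCL2, a chemokine that draws monocytes, ranked first of the 150 by the smaller SD, at 8.90, 5.12 and 7.03 in X5050 cultures 1, 2 and 3, against 9.97, 6.65 and 5.48 in DMSO cultures 1, 2 and 3. Culture 1 was highest in both treatments, while cultures 2 and 3 changed places between them. GREM1, a BMP antagonist, measured 8.02, 6.73 and 6.76 in X5050 cultures 1, 2 and 3, against 9.39, 7.71 and 7.33 in DMSO cultures 1, 2 and 3. DKK2, a WNT pathway modulator, FST, the activin antagonist follistatin, and ANGPT1, a ligand of the TEK receptor, were also high in culture 1. SHISA3 had culture 2 apart and high, at 5.01, 6.61 and 5.23 in X5050 cultures 1, 2 and 3, against 4.99, 6.43 and 5.27 in DMSO cultures 1, 2 and 3. IGFBP5, a binding protein for insulin-like growth factors, had culture 3 apart and low, at 8.51, 8.29 and 6.89 in X5050 cultures 1, 2 and 3, against 8.83, 8.66 and 7.30 in DMSO cultures 1, 2 and 3. FRZB, a secreted WNT antagonist, had culture 3 apart and high, at 8.61, 8.16 and 9.40 in X5050 cultures 1, 2 and 3, against 8.10, 8.13 and 9.25 in DMSO cultures 1, 2 and 3.

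Of the protease inhibitors, complement and coagulation genes, 6 of 9 were in the culture 1 high class. A2M, the protease inhibitor alpha-2-macroglobulin, measured 10.57, 7.81 and 8.85 in X5050 cultures 1, 2 and 3, against 10.46, 8.07 and 8.83 in DMSO cultures 1, 2 and 3, and PLAT, tissue plasminogen activator, had the same culture high. CFI, complement factor I, measured 6.66, 4.54 and 6.14 in X5050 cultures 1, 2 and 3, against 6.90, 5.36 and 6.81 in DMSO cultures 1, 2 and 3. TFPI, the tissue factor pathway inhibitor, measured 7.65, 6.29 and 7.98 in X5050 cultures 1, 2 and 3, against 7.26, 6.37 and 7.92 in DMSO cultures 1, 2 and 3. In both genes culture 2 was apart and low in each treatment, while culture 3 lay in the middle for CFI and on top for TFPI. PI15, a peptidase inhibitor, shared this pattern.

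Transcription factors gave 9 of 13 genes with culture 1 high. SNAI2, the mesenchymal and neural crest repressor Slug, measured 8.98, 7.10 and 7.04 in X5050 cultures 1, 2 and 3, against 9.96, 7.64 and 7.15 in DMSO cultures 1, 2 and 3. PRRX1, a homeobox factor of limb and cranial mesenchyme, measured 8.60, 6.92 and 7.32 in X5050 cultures 1, 2 and 3, against 8.94, 7.31 and 7.62 in DMSO cultures 1, 2 and 3. RUNX2, the osteoblast factor, measured 7.37, 6.22 and 6.20 in X5050 cultures 1, 2 and 3, against 7.89, 5.90 and 6.34 in DMSO cultures 1, 2 and 3. All 3 had culture 1 above every other array. AHR, the ligand-activated aryl hydrocarbon receptor, measured 8.51, 7.01 and 7.33 in X5050 cultures 1, 2 and 3, against 9.02, 7.30 and 7.22 in DMSO cultures 1, 2 and 3, and its target CYP1B1, a cytochrome P450, measured 7.10, 5.78 and 5.51 in X5050 cultures 1, 2 and 3, against 8.09, 6.83 and 6.56 in DMSO cultures 1, 2 and 3. BHLHE40, BNC2, LEF1 and EGR1 followed the same order of culture 1 over the others. ID3, an inhibitor of basic helix-loop-helix factors, measured 8.34, 7.08 and 6.49 in X5050 cultures 1, 2 and 3, against 8.09, 7.61 and 6.37 in DMSO cultures 1, 2 and 3. For ID3 culture 3 was apart and low on the average of the 2 arrays of a culture and with DMSO alone. With X5050 alone culture 1 was apart and high. NFIX, a nuclear factor of the radial glia to astrocyte path, had culture 2 apart and low, at 7.86, 6.64 and 7.32 in X5050 cultures 1, 2 and 3, against 7.54, 6.19 and 7.09 in DMSO cultures 1, 2 and 3.

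Metabolic and stress genes gave 9 of 12 with culture 1 high. CRYAB, the small heat shock protein alpha B-crystallin, measured 7.37, 5.04 and 4.33 in X5050 cultures 1, 2 and 3, against 6.99, 5.14 and 4.54 in DMSO cultures 1, 2 and 3. NQO1, a quinone reductase, measured 8.08, 6.70 and 6.46 in X5050 cultures 1, 2 and 3, against 8.86, 7.71 and 6.87 in DMSO cultures 1, 2 and 3, and ME1, malic enzyme, measured 7.47, 6.32 and 5.75 in X5050 cultures 1, 2 and 3, against 8.76, 7.34 and 6.24 in DMSO cultures 1, 2 and 3. For all 3 the order of cultures was 1, 2, 3 downward in each treatment. SLC7A11, the cystine transporter, stood high in culture 1, while the cationic amino acid transporter SLC7A3 had culture 1 low, at 7.04, 8.11 and 7.43 in X5050 cultures 1, 2 and 3, against 6.32, 7.45 and 7.16 in DMSO cultures 1, 2 and 3.

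Of the 13 neuronal and axonal genes 4 were highest in culture 1 in both treatments, and the group divided between the cultures. SLC17A6, the vesicular glutamate transporter VGLUT2, measured 5.95, 5.41 and 7.77 in X5050 cultures 1, 2 and 3, against 5.78, 5.46 and 6.79 in DMSO cultures 1, 2 and 3. SLC6A5, the glycine transporter GlyT2 of inhibitory neurons of the hindbrain and spinal cord, measured 6.78, 6.70 and 7.81 in X5050 cultures 1, 2 and 3, against 6.35, 6.27 and 7.57 in DMSO cultures 1, 2 and 3. ROBO3, an axon guidance receptor of commissural neurons, measured 5.84, 5.33 and 6.40 in X5050 cultures 1, 2 and 3, against 5.86, 5.43 and 6.60 in DMSO cultures 1, 2 and 3. In these 3 genes both arrays of culture 3 lay above the 4 others. ELAVL4, a neuronal RNA-binding protein, measured 6.12, 7.19 and 6.56 in X5050 cultures 1, 2 and 3, against 6.10, 7.17 and 7.18 in DMSO cultures 1, 2 and 3, with culture 1 lowest in each treatment. NAALAD2, a glutamate carboxypeptidase, was lowest in culture 1 as well, and NAV3, a microtubule-associated navigator protein, had culture 2 apart and high. GRIA1, an AMPA receptor subunit, went the other way, at 10.36, 9.22 and 9.66 in X5050 cultures 1, 2 and 3, against 10.23, 9.39 and 9.00 in DMSO cultures 1, 2 and 3, with culture 1 high.

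Culture 2 was apart and high for 9 genes, led by a cadherin and an ephrin receptor. EPHA7, the receptor, measured 7.36, 8.75 and 7.18 in X5050 cultures 1, 2 and 3, against 6.57, 8.51 and 6.85 in DMSO cultures 1, 2 and 3. CDH7, a cadherin known from migrating neural crest of the chick, measured 6.41, 8.0 and 6.75 in X5050 cultures 1, 2 and 3, against 6.62, 8.33 and 6.85 in DMSO cultures 1, 2 and 3. Culture 2 exceeded every array of the other cultures for both genes. On the low side, IL13RA2, a decoy receptor for interleukin 13, measured 5.54, 4.11 and 5.47 in X5050 cultures 1, 2 and 3, against 6.25, 4.09 and 6.30 in DMSO cultures 1, 2 and 3, and S100B, a calcium-binding protein of astrocytes and Schwann cells, measured 8.43, 7.14 and 7.81 in X5050 cultures 1, 2 and 3, against 8.04, 6.93 and 7.81 in DMSO cultures 1, 2 and 3. Both arrays of culture 2 were below the 4 others in each of these 2 genes.

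To see which cell programmes the 150 genes belong to, 20 marker lists were set beside them. Of the 35 measured genes of the matrix and mesenchymal list, which leaves out collagens, 14 were among the 150, and 8 of the 21 others were called by the culture F test (38.1%, beside 2.93% of all probe sets). Of those 21, culture 1 was highest in both treatments for 17, against 16.3% of all genes outside the 150, and the median of culture 1 minus the others was 0.40 with X5050 and 0.53 with DMSO. Of the 17 measured smooth muscle and contractile genes, 5 were among the 150, and TPM1, TPM2 and CSRP1 were called among the 12 others (25%). Of those 12, culture 1 was highest in both treatments for 9, with medians of 0.22 and 0.47, while the other 9 genes did not pass the F test. TPM2, a tropomyosin, measured 9.68, 8.89 and 8.83 in X5050 cultures 1, 2 and 3, against 10.25, 9.42 and 9.17 in DMSO cultures 1, 2 and 3, and IGFBP7, a secreted binding protein, measured 7.32, 6.42 and 6.64 in X5050 cultures 1, 2 and 3, against 8.48, 6.82 and 6.83 in DMSO cultures 1, 2 and 3. Of the 15 YAP and TEAD genes, 4 were among the 150 and AJUBA was called among the 11 others, which had medians of 0.15 and 0.35.

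Summed on a linear scale, the whole contractile list, with the genes the rule chose, gave 7335, 3892 and 3225 in X5050 cultures 1, 2 and 3, against 12367, 5428 and 3376 in DMSO cultures 1, 2 and 3. Without the chosen genes it gave 3032, 2100 and 2011 with X5050 and 5028, 2737 and 2185 with DMSO. The whole matrix list summed to 12931, 7837 and 7878 with X5050 and to 17667, 9190 and 8106 with DMSO. Without the chosen genes it gave 6992, 5529 and 5606 with X5050 and 7886, 6178 and 5751 with DMSO, and culture 1 was on top in all of these sums. DES and MYH11 of the contractile list showed no such step: DES measured 6.24, 6.34 and 6.25 with X5050, and 6.36, 6.34 and 6.49 with DMSO, and MYH11 measured 5.48, 5.48 and 5.58 with X5050, and 5.60, 5.62 and 5.49 with DMSO. In both genes the 6 arrays lay close together and culture 1 was not on top in both treatments. The mean MYH11 signal, 5.54, lay below all array medians. CNN1 and LMOD1 of the same list did have culture 1 on top in both treatments, without passing the F test. CNN1 measured 6.15, 5.93 and 5.99 with X5050, and 6.62, 6.33 and 5.71 with DMSO. LMOD1 measured 4.81, 4.66 and 4.61 with X5050, and 5.14, 4.80 and 4.84 with DMSO. Whether other cells in culture 1 had a part in these values was not tested.

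**Figure D3:**
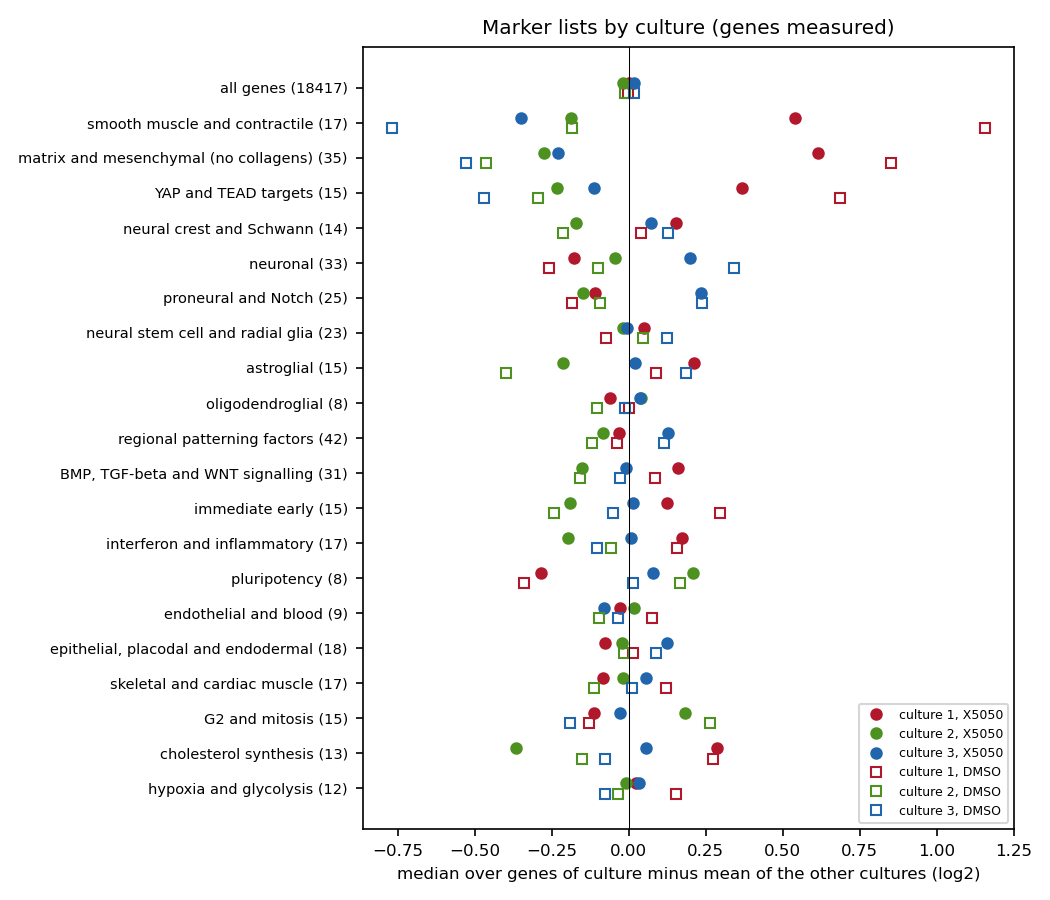
Median over the measured genes of each marker list (rows, number of genes in brackets) of 1 culture minus the mean of the others on the log2 scale (horizontal), with filled circles for X5050 and open squares for DMSO. The genes the rule chose are included. Culture 1 lies right of 0 in both treatments for lists that include the contractile, matrix, YAP and cholesterol lists, and culture 3 for lists that include the neuronal and proneural lists.

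The NSC and radial glia list ran over a wide range of signal. Among its bright genes, SOX2 lay between 10.74 and 11.07, PAX6 between 10.51 and 10.98 and FABP7, a radial glia fatty acid-binding protein, between 11.96 and 12.21 over the 6 arrays, while NES, nestin, lay between 8.66 and 9.33. LHX2 (mean 4.82), SOX1 (6.45) and HOPX (6.59) were dim, near or below the median of all genes. Other genes of the list were less even. In cultures 1, 2 and 3, PROM1 measured 9.67, 9.68 and 9.19 with X5050, and 10.10, 9.81 and 9.12 with DMSO. DACH1 measured 8.30, 8.62 and 8.83 with X5050, and 8.18, 8.59 and 8.86 with DMSO. SLC1A3 measured 10.90, 10.13 and 10.70 with X5050, and 10.61, 10.34 and 10.82 with DMSO. Of the 23 NSC and radial glia genes only TNC was among the 150, and 0 of the 22 others were called by the limma culture F test, although 6 of them (27.3%) had an unadjusted p under 0.05, beside 14.9% of all genes outside the 150. The median culture 1 difference of that list was 0.05 with X5050 and -0.07 with DMSO.

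Culture 3 was the high one in every call of the proneural list, but not in those of the neuronal list. Of 25 proneural and Notch genes none was among the 150, and 4 (16.0%, beside 2.93%) were called, all with culture 3 high. These were EBF2 and EBF3, factors of early neuronal differentiation, ST18, a zinc finger factor, and NEUROG2, the proneural factor neurogenin 2. NEUROG2 measured 6.32, 6.61 and 7.24 in X5050 cultures 1, 2 and 3, against 6.52, 6.64 and 7.07 in DMSO cultures 1, 2 and 3, and EBF3 measured 8.73, 8.92 and 9.40 in X5050 cultures 1, 2 and 3, against 8.63, 8.98 and 9.53 in DMSO cultures 1, 2 and 3. The median of culture 3 minus the others over the list was 0.23 with X5050 and 0.24 with DMSO. Of 33 neuronal genes 3 were among the 150 and 5 of the 30 others were called (16.7%), namely SYT4 and NSG1 with culture 3 high, DCX with culture 1 low, and GAP43 and NEFL with culture 1 high, so the calls did not go one way. GAP43, a growth cone protein, measured 11.32, 10.68 and 10.61 in X5050 cultures 1, 2 and 3, against 11.51, 10.77 and 10.56 in DMSO cultures 1, 2 and 3. Among 42 regional patterning factors PAX3 and POU4F1 were called with culture 3 high and DBX2 with culture 1 low, and none was among the 150.

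The astroglial list gave 2 of the 150 and 3 calls in 13 others: GJA1, the gap junction protein connexin 43, with culture 1 high, SPARCL1 with culture 1 low and CLU with culture 2 low. The 26 BMP, TGF-beta and WNT genes outside the 150 gave 1 call, RSPO3 with culture 2 low, and 5 more were among the 150. The neural crest and Schwann list gave 1 call of 13, ETS1 with culture 1 high, the interferon and inflammatory list gave 2 of 16, CXCL14 with culture 1 high and IFIT2 with culture 2 low, and the cholesterol list gave DHCR7 of 13 with culture 1 high. In those 13 cholesterol genes, 0 of them among the 150, culture 1 was highest in both treatments for 9, against 16.3% of all genes outside the 150. Their median of culture 1 minus the others was 0.29 with X5050 and 0.28 with DMSO, and 7 had an unadjusted p under 0.05 in the F test. The limma F test called 0 genes outside the 150 in the remaining lists. At an unadjusted p under 0.05 these lists gave 7 of 14 immediate early, 5 of 8 pluripotency, 5 of 15 mitosis, 4 of 12 hypoxia, 1 of 8 endothelial and 1 of 18 epithelial genes, and 0 of 8 oligodendroglial and 0 of 17 skeletal and cardiac muscle genes, against 14.9% of all genes outside the 150. The neuronal list gave 19 of 30 and the proneural list 12 of 25 at that unadjusted level. With X5050 and with DMSO, the median of culture 1 minus the others was -0.28 and -0.34 for the pluripotency genes. For the immediate early genes outside the 150 it was 0.09 and 0.20. The median of culture 2 minus the others was 0.18 and 0.26 for the mitosis genes. Over all genes outside the 150 the F test called 410 of 18267 (2.24%).

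**Figure D4:**
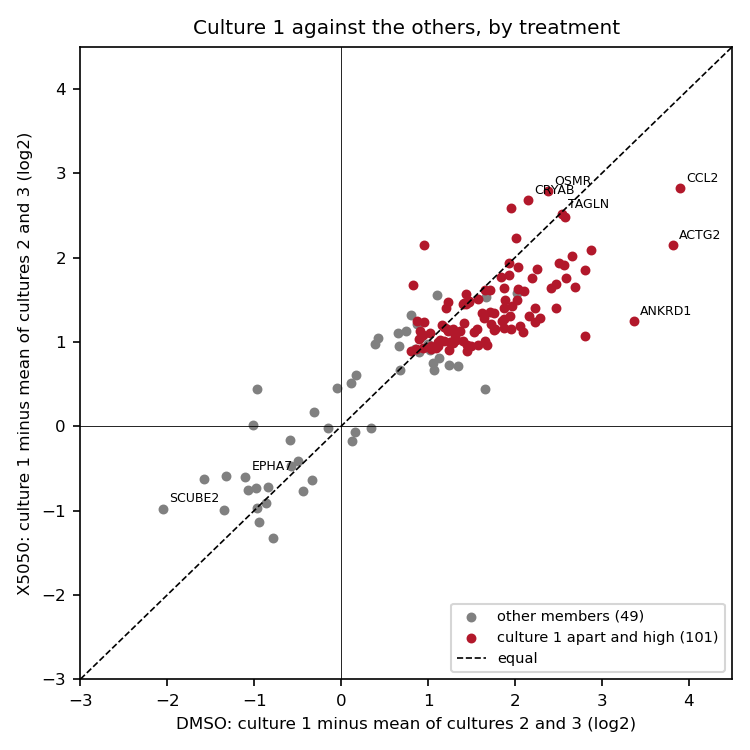
Culture 1 minus the mean of cultures 2 and 3 on the log2 scale for each of the 150 genes, with X5050 (vertical) against DMSO (horizontal), and a dashed line of equality. The 101 genes with culture 1 apart and high (red) lie at positive values in both treatments, with medians of 1.29 for X5050 and 1.67 for DMSO.

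The median absolute treatment change of the 150 genes was 0.25, against 0.09 over all genes. Their median range of the 3 culture means was 1.55, against 0.18 over all genes. The rule chose a wide spread between cultures, so nothing is read from that range exceeding the treatment change. In none of the 150 was the treatment change larger than the range of the 3 culture means, which happened for 25% of all genes, and in none did the X5050 and DMSO values lie apart without overlap, beside 14.9% of all probe sets. Both counts lean on the rule, which picked genes with a wide spread in each treatment. The limma test without culture in the fit called 0 of the 150 in either direction, beside 0.0% of all probe sets, and 0 at an unadjusted p under 0.05, beside 9.37%. The smallest adjusted p among them was 0.582. These counts also follow from the rule, since the error of a fit without culture is the spread that chose the genes, and nothing is read from them.

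With culture in the fit as a replicate block 8 of the 150 were called, 1 higher in X5050 (beside 0.19% of all probe sets) and 7 lower (beside 0.308%). The 8 genes were called only in that fit, and without the block their adjusted p lay between 0.582 and 0.748. At an unadjusted p under 0.05 the block gave 15 higher (10.0%, against 7.25% of all genes) and 44 lower (29.3%, against 7.13%). CYP1B1, given above, fell by 1.03 on the log2 scale (SE 0.086, limma adjusted p 0.00815) and was lower in X5050 in 3 of 3 cultures. CCN2, a matricellular YAP target, measured 8.48, 7.45 and 7.17 in X5050 cultures 1, 2 and 3, against 10.07, 8.52 and 7.89 in DMSO cultures 1, 2 and 3 and fell by 1.13 (SE 0.15, limma adjusted p 0.0350). LUM, the keratan sulfate proteoglycan lumican, measured 8.45, 6.34 and 7.43 in X5050 cultures 1, 2 and 3, against 9.45, 7.91 and 8.11 in DMSO cultures 1, 2 and 3 and fell by 1.09 (SE 0.15, limma adjusted p 0.0386). In each culture the X5050 value of these genes was below the DMSO value, although the X5050 value of culture 1 stayed near or above the DMSO value of the other cultures.

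PI15 measured 8.95, 6.74 and 8.94 in X5050 cultures 1, 2 and 3, against 9.84, 8.64 and 9.74 in DMSO cultures 1, 2 and 3 and fell by 1.20 (SE 0.19, limma adjusted p 0.0488), GREM1 fell by 0.97 (SE 0.14, limma adjusted p 0.0429), ME1 by 0.94 (SE 0.14, limma adjusted p 0.0444) and EPCIP by 0.67 (SE 0.094, limma adjusted p 0.0369). All of these were lower in 3 of 3 cultures. The 1 gene that rose was FAM86B2-DT, a long non-coding RNA symbol named here because it was the only one, with a log2 change of 0.85 (limma adjusted p 0.0444). Without culture 3 the block called 0 of the 150, and without culture 1 or culture 2 it called 16 and 7. EYS, SLC7A3, ANGPT1, CCDC102B and BBOX1 had the smallest p on the higher side, with changes of 0.77, 0.55, 0.48, 0.56 and 0.45, and did not pass the test. The further, dimmer probe sets of EYS did not show a rise of this size. The brightest of them gave 4.34, 4.45 and 3.66 with X5050, against 4.39, 4.53 and 4.43 with DMSO, in cultures 1, 2 and 3.

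The treatment change was also described culture by culture, without a test. The mean was lower in X5050 for 103 of the 150 (68.7%, against 46.9% of all genes), and lower in all 3 cultures for 45 (30%, against 17.2%). Within the 101 genes high in culture 1, the median change of X5050 minus DMSO was -0.47 in culture 1, -0.31 in culture 2 and 0.06 in culture 3, and 81, 89 and 43 of the genes were lower. The other 49 genes had medians of 0.12, -0.08 and 0.10. Over all genes these medians were 0.00, 0.00 and 0.01.

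The SD over cultures was smaller with X5050 than with DMSO for 79 of the 101 genes and for 26 of the other 49, against 57.7% of all genes. The median excess of culture 1 over the others was 1.29 with X5050 and 1.67 with DMSO in the 101 genes, 1.54 and 2.03 in the contractile genes, and 1.31 and 1.94 in the matrix genes. With 1 array per culture and treatment the dependence of the treatment change on the culture has no replicate check, and no test of it was possible.

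**Figure D5:**
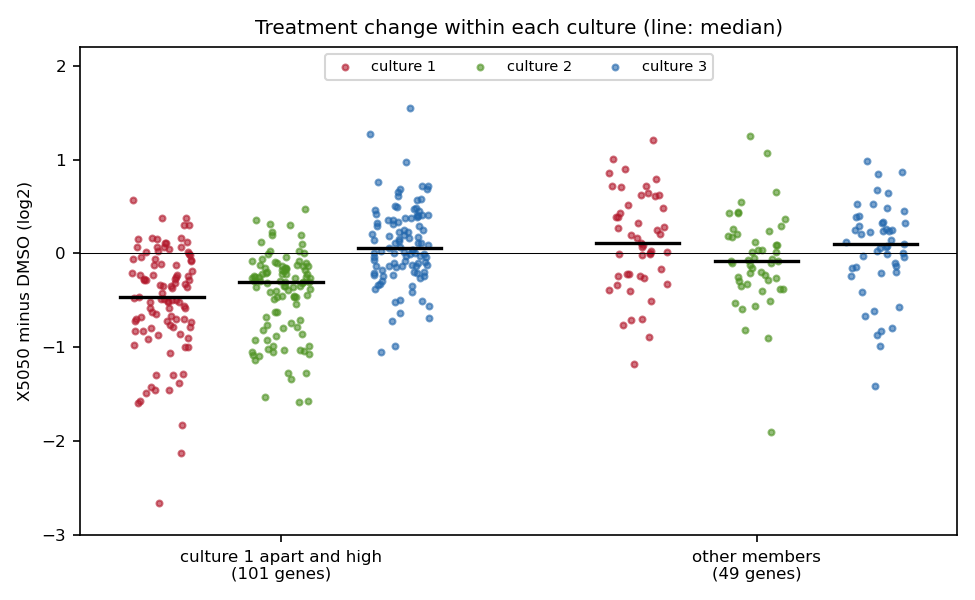
X5050 minus DMSO within each culture on the log2 scale (vertical), 1 point per gene, for the 101 genes with culture 1 apart and high and the other 49, with a black line at each median. The medians of the 101 genes are -0.47 in culture 1, -0.31 in culture 2 and 0.06 in culture 3.

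The 150 genes included 16 of the 1840 genes ranked on chromosome 1 and 11 of 703 on chromosome 4. They included 2 of 1043 on chromosome 17 and 1 of 1298 on chromosome 19, and the evenness of these counts was not tested. Over all ranked genes of each chromosome the median of culture 1 minus the others lay between -0.025 and 0.012. The correlation of deviations from the treatment means between same-numbered arrays was 0.877, 0.857 and 0.811 in cultures 1, 2 and 3 over the 150 genes, and 0.418, 0.283 and 0.401 over the genes outside them, while differently numbered arrays gave values below 0. Deviations sum to 0 within a treatment for each gene, so the values below 0 follow in part from the positive ones.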

How the data were processed

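Total RNA (100 ng) was hybridised to Affymetrix arrays, 1 per sample. The deposited log2 values were made by the authors with RMA in Partek, per the submitters' processing notes; their versions, settings and genome build are not given in those notes. Of 33297 probe sets, 19460 had 1 gene symbol and were tested, 1754 had several symbols, and 12083 were not in the platform annotation; 0 further sample columns were present. The values were used as deposited. Changes were fitted with limma 3.58.1 in R 4.3.3 (two-sided, Benjamini-Hochberg over all tested probe sets, called at an adjusted p under 0.05), X5050 minus DMSO, without the replicate number and with it as a block; cultures were compared by an F test with treatment in the fit. Replicates with the same number were taken as 1 culture because their deviations correlated at 0.365, 0.297 and 0.255 over all probe sets. The number of arrays, 6, limits the precision. The p-values without the block rest on the spread between samples of a treatment. Those with the block, and those of the F test, rest on what is left after treatment and replicate number are fitted, with 2 residual degrees of freedom. In each case limma moderates this error over the probe sets.

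The genes, lists and tests were chosen with earlier results of these data known. Genes named are the 30 with the largest smaller SD, 6 per culture class, those called, the 5 with the smallest p each way, up to 4 members and 4 others per list and the limits of the rule, without non-coding symbols; further genes named in each group of the description were chosen after their values were seen. On simulated data with 200 changed of 19460 probe sets, a log2 change of 1 was recovered for 199 (no block), 200 (block) and 199 (cultures). These counts do not give the recovery of treatment changes for the genes described here, which were chosen for a wide spread between cultures. In the limma fit without the block, CYP1B1 and CCN2 changed by -1.03 and -1.13 on the log2 scale. Their adjusted p in that limma fit was 0.582 and 0.593, so neither was called. Alternatives were array scaling, no dim probe sets, the prefixes kept, and each replicate left out.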

Additional observations from a re-analysis of the deposited data

How the results depend on the processing

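With the replicate block, 97 probe sets were called for treatment in place of 0, 8 of them among the 150 genes; with quantile scaling added these counts were 51 and 2, with median centring 99 and 11, and without dim probe sets 252 and 12. Leaving out 1 replicate gave 0 to 1 calls without the block, and 0 to 346 with it, 0 to 16 among the 150: 346, 81 and 0, and 16, 7 and 0, without replicate 1, 2 and 3. The culture test without a treatment term called 83 probe sets and 66 of the 150, against 570 and 143, and with 1 replicate left out 160 to 997 and 125 to 148. Applied anew with 1 array or culture left out, the rule kept 51 to 127 of the 150 genes: 67 without X5050 replicate 1, 80 without DMSO replicate 1 and 51 without culture 1. The genes with culture 1 apart and high then numbered 29 to 115. The median treatment change of the 150 was -0.14 and ran between -0.54 and 0.25 with 1 array left out (0.055 without X5050 replicate 2, 0.25 without DMSO replicate 1, -0.48 without DMSO replicate 3), as each omission shifts 1 group's share of a culture. The causes of the other differences were not tested. Of 188 values for 12 named genes under the alternatives, 0 reversed. The number of arrays limits the precision of every value.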
